A study of Mus musculus with 2 samples.

Results

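Among lung endothelial cells (ECs) sampled 6 h after intravenous injection of melanoma cells, a small set carried transcripts of Csf2 or Sox9. These cells were selected by their counts of unique molecular identifiers (UMIs, 1 per captured RNA molecule). A barcode was kept with 1000 to 5000 detected genes and under 20% mitochondrial UMIs. It was taken as an EC with at least 2 UMIs of Pecam1 and Cdh5 together, and it entered the gate with at least 3 UMIs of Csf2, Sox9 and Fosl1 together, of which at least 1 was Csf2 or Sox9. The gate held 185 of 16715 kept cells, 180 in the B16-F10 library and 5 in the control library.

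The data were 2 single-cell RNA libraries of lungs from wild-type C57BL/6 mice. B16-F10, a mouse skin melanoma line labelled with a green tracker dye, had been injected into the tail vein at 400000 cells in 100 µl of phosphate-buffered saline (PBS), and control mice received PBS through the same route. Lungs of both groups were taken after 6 h and sorted for Pecam1-positive, Ptprc-negative cells, to which dyed melanoma cells of the injected lungs were added. Cells of similarly treated mice were pooled before sequencing, 2 mice per treatment by the labels and 3 by the study's methods, so that each group was 1 library and no replicate error could be given. Tail vein injection delivers many tumor cells to the lung at once and does not pass through growth and escape of a primary tumor.

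Csf2 encodes the cytokine GM-CSF, which acts on myeloid cells, and Sox9 encodes a transcription factor best known from cartilage and from progenitor cells of epithelia. Fosl1 encodes FRA-1, a subunit of the AP-1 transcription factor, and Hbegf encodes a membrane-anchored ligand of the EGF receptor. In the lung, gas exchange takes place across a mosaic of general capillary (gCap) and aerocyte capillary (aCap) ECs, which normally hold a quiescent barrier. Growth factor and mechanical signals reach AP-1 through ERK kinases, and activated ECs are known to turn on adhesion molecules, chemokines and genes of clot breakdown.

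The gated cells made up 2.25% of 7988 ECs in the B16-F10 library (exact 95% interval 1.94 to 2.60) and 0.0604% of 8274 ECs in the control library (0.0196 to 0.141). The difference was 2.19 percentage points (Newcombe interval 1.88 to 2.54). Intervals here and below cover counting error only, and with 1 library per group neither the share nor any gene difference could be tested against variation between mice. The 5 gated control cells carried 18 Sox9 UMIs, 1 Fosl1 UMI and none of Csf2 or Hbegf. The libraries shared 19 barcodes among kept cells, none of them in the gate.

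The libraries held 85794655 (control) and 104978816 (B16-F10) UMIs over all barcodes. Gated cells of the B16-F10 library were deeper, with a median of 11359 UMIs and 3511 genes, than its other ECs, which had 8696.5 UMIs and 3311 genes. Mitochondrial UMIs were 2.05% and 2.46% of the total at the median. A doublet caller marked 6.67% of gated cells and 6.80% of the other ECs.

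The 4 genes that gave the cells their name are described first. Csf2, Sox9 and Fosl1 formed the gate, so their values state what was selected and support nothing else. Csf2 (ENSMUSG00000018916, GRCm38 chromosome 11, 54247271 to 54249667, minus strand) was detected in 41.1% of gated cells, with a median of 0, a highest value of 50 and a sum of 718 UMIs. Sox9 (ENSMUSG00000000567, chromosome 11, 112782224 to 112787760, plus strand) was detected in 79.4%, with a median of 4 UMIs per cell, a highest value of 51 and a sum of 1181. Fosl1 (ENSMUSG00000024912, chromosome 19, 5447547 to 5455946, plus strand) was detected in 83.3%, with a median of 3, a highest value of 17 and a sum of 656 UMIs. All 3 are protein-coding genes, and each was absent from part of the gated cells.

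Outside the gate, whose rule removed ECs with more UMIs of these genes, the shares were low by construction. Csf2 was detected in 0.525% of the other B16-F10 ECs, Sox9 in 1.04% and Fosl1 in 4.34%. Kept cells of the same library with fewer than 2 Pecam1 and Cdh5 UMIs, which numbered 333 and had a median of 3564 UMIs, showed Csf2 in 0.901%, Sox9 in 2.102% and Fosl1 in 3.90%. These cells had not been split by the gate, so their shares and those of the other ECs are not matched. With every cell thinned to 4000 UMIs, Csf2 remained in 32.2% of 171 gated and 0.307% of 6838 other ECs, and Sox9 in 70.8% and 0.468%.

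Hbegf was not part of the gate. It was detected in 78.3% of gated cells and 19.7% of the other ECs, with a median of 6 and a highest value of 99 UMIs per gated cell. Summed over the cells of a group and expressed as CPM, the gene's share of all UMIs of that group on the usual counts-per-megacount scale, Hbegf was at 1128 CPM in gated cells (1083 to 1174), 64.1 CPM in other B16-F10 ECs (62.2 to 66.0) and 20.04 CPM in control ECs outside the gate. The log2 ratio of gated over other ECs was 4.14 (4.06 to 4.21), while that of other ECs over control was 1.68. Free RNA, estimated from near-empty barcodes, would supply 1.91 CPM of Hbegf to the gated cells.

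Csf2 and Sox9 were often not detected in the same gated cell. The rule left out cells with neither, so the split cannot show whether the 2 genes avoid each other. Of the 180 cells, 37 carried both transcripts, 37 carried Csf2 without Sox9 and 106 carried Sox9 without Csf2, at a median of 10350, 10273 and 11615 UMIs. Hbegf was detected in 34 of the 37 cells with both, in 32 of the 37 with Csf2 alone and in 75 of the 106 with Sox9 alone. In CPM, Hbegf was at 1662 in cells with both, 947 in cells with Csf2 alone and 1014 in cells with Sox9 alone. Of 5412 genes compared between the last 2 subsets, 1.57% were at least 2-fold higher and 5.41% at least 2-fold lower with Csf2 alone. The subsets differed in capillary markers: 7 of 7 markers of aerocyte capillaries that could be compared were lower with Csf2 alone (median log2 ratio -2.54, summed level 358 against 1651 CPM), and 3 of 6 gCap markers were higher. They also differed in expression cluster. In cluster 15, described below and high in aCap markers, Sox9 was detected in 37 of 37 gated cells and Csf2 in 5. Its gated cells thus lay outside the subset with Csf2 alone. Hbegf was detected in 14 of these 37 cells. The part of cluster make-up in the differences between subsets was not tested. Cxcl10, encoding a chemokine for activated T cells, was lower with Csf2 alone (55.9 against 419 CPM), but 1 cell held 54.9% of its UMIs in the gate. Csf1, encoding the macrophage growth factor M-CSF, was at 564 CPM with both genes, 338 with Csf2 alone and 174 with Sox9 alone.

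**Figure D1:**
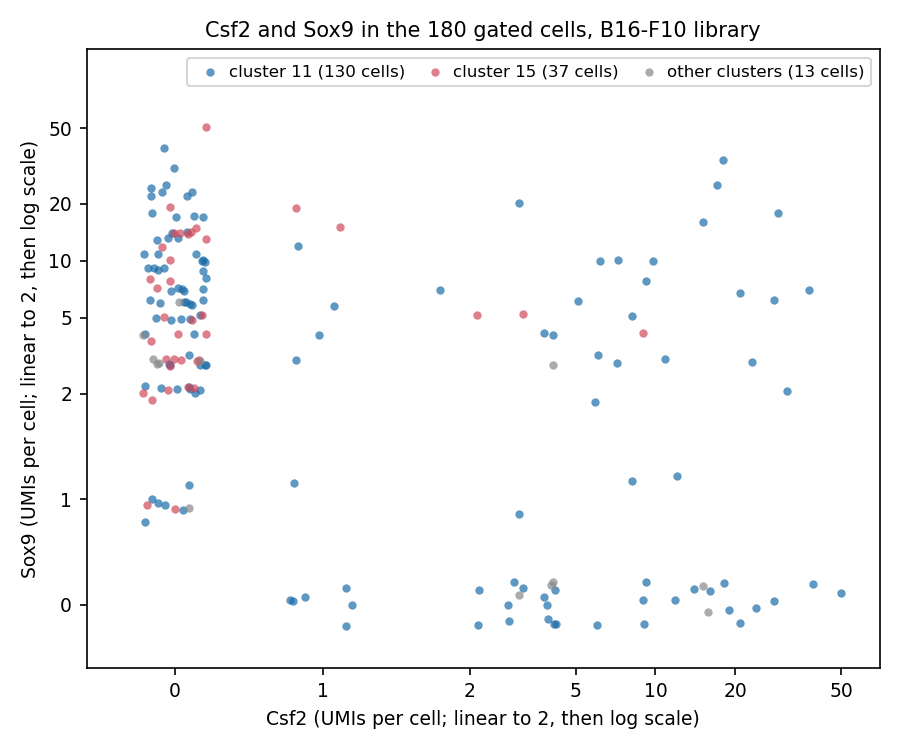
Csf2 UMIs (x axis) against Sox9 UMIs (y axis) in each of the 180 gated cells of the B16-F10 library. Both axes are linear to 2 and logarithmic above, points are shifted slightly at random so that cells with equal counts can be told apart, and colors give the expression cluster. The column at a Csf2 count of 0 holds 106 cells and the row at a Sox9 count of 0 holds 37. Red points, cluster 15, carry Csf2 in 5 of 37 cells.

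Counts of the gate genes ran on both sides of the gate's limit. In the B16-F10 library 7361 ECs had no UMI of the 3 gate genes, 252 had 1 and 96 had 2, just outside the gate, while 50 had 3, of which 17 also had Csf2 or Sox9 and were just inside. Another 99 ECs had at least 3 Fosl1 UMIs but neither Csf2 nor Sox9, and stayed outside. Hbegf was at 34.0 CPM in ECs without a gate UMI, 178 with 1 UMI, 342 with 2, 632 with 3 and 1489 with over 20. Pdgfa, a ligand for PDGF receptors, went from 42.7 over 253, 446 and 692 to 1757 CPM in the same bins. Both genes were highest with 11 to 20 gate UMIs, at 1533 CPM for Hbegf and 2371 CPM for Pdgfa.

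Genes that were low in the gate went the other way along the same bins. Calcrl, encoding a receptor for adrenomedullin and a regular gene of lung capillaries, was at 3842 CPM without a gate UMI and at 212 CPM with over 20. Glp1r, a gCap marker encoding the receptor of the incretin GLP-1, was at 336 and 5.88 CPM. Median depth moved along, from 8613 UMIs per cell at 0 gate UMIs to 12780 at over 20, and its part in these differences was not tested. For these 4 genes, the summed levels of ECs with 1 or 2 gate UMIs lay between the ends. Such sums cannot tell cells of intermediate level from a mixture of high and low cells. The 99 ECs with Fosl1 alone had 1272 CPM of Hbegf and 1211 CPM of Pdgfa, against 947 to 1662 and 1524 to 1847 CPM in the 3 subsets of gated cells.

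**Figure D2:**
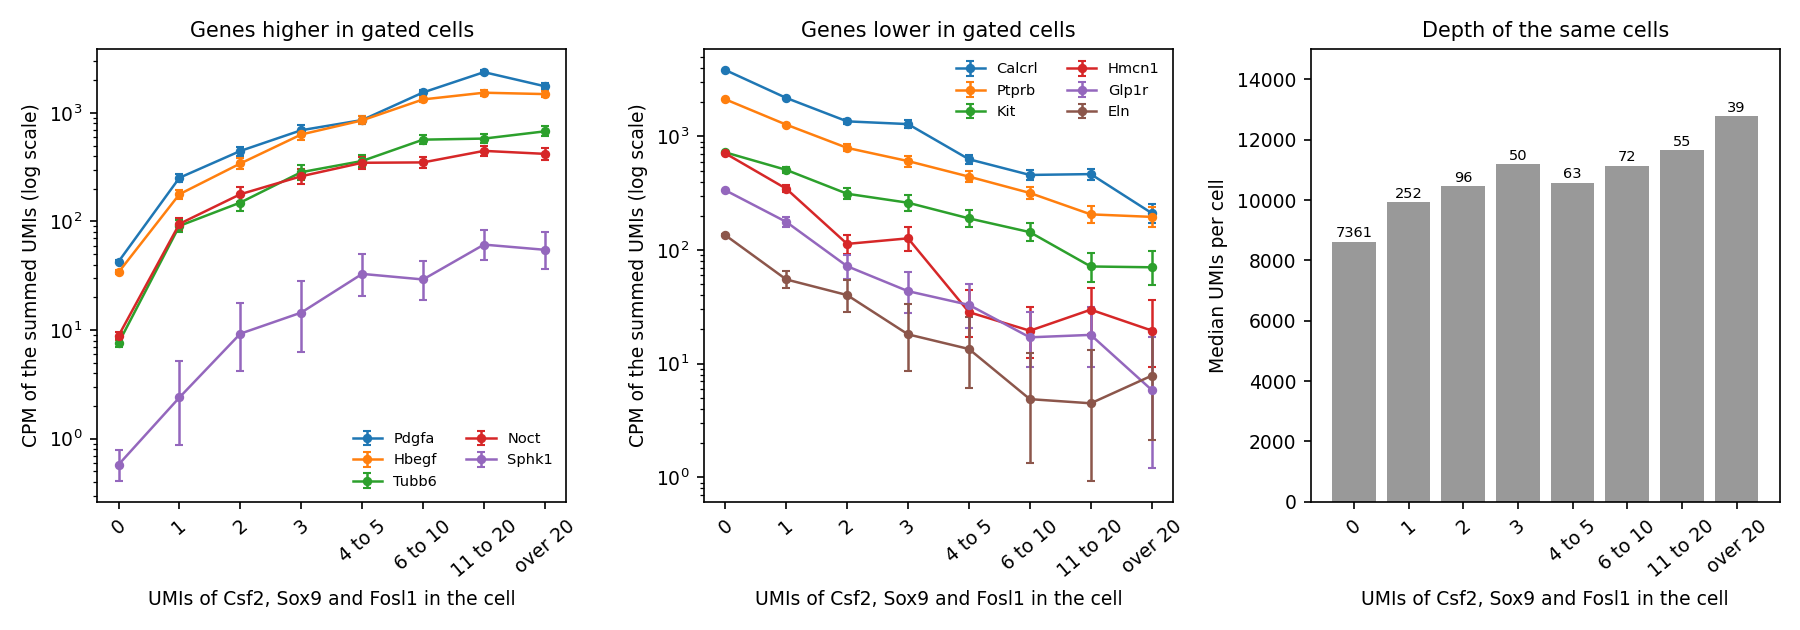
Level of 5 genes that were higher (left) and 6 that were lower (middle) in gated cells, by the number of Csf2, Sox9 and Fosl1 UMIs in the cell, for all 7988 ECs of the B16-F10 library. Points are CPM of summed UMIs on a log axis and bars are exact 95% Poisson intervals. The right panel gives the median UMIs per cell, with the number of cells above each bar. Between the first and last bins, Hbegf goes from 34.0 to 1489 CPM and Calcrl from 3842 to 212, while median depth goes from 8613 to 12780.

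Gated cells resembled each other in genes the gate did not use. In a neighbor graph built on 2997 variable genes without Csf2, Sox9, Fosl1, Pecam1 and Cdh5, a mean of 51.03% of the 20 nearest neighbors of a gated cell were also gated. For the other ECs that mean was 1.22%, and gated cells were 2.25% of all ECs. The share was 49.7% when the genes of all pathway lists used below were also left out. Spread was wide: 106 gated cells had more than 50% gated neighbors and 6 had none.

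Clustering of the same graph into 21 clusters put 130 gated cells (72.2%) into cluster 11 and 37 (20.6%) into cluster 15, with the other 13 in 6 clusters. Gated cells were 39.3% of the 331 cells of cluster 11 and 31.6% of the 117 cells of cluster 15. Csf2 was detected in 63 of 130 gated cells of cluster 11 (48.5%, 39.6 to 57.4) and in 5 of 37 of cluster 15 (13.5%, 4.54 to 28.8). Sox9 was detected in 98 of 130 and in 37 of 37. Cells with Csf2 were thus mostly in cluster 11.

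The 2 clusters carried marks of different capillary types. In 128 of 130 gated cells of cluster 11, UMIs of 8 gCap markers outnumbered those of 8 aCap markers, with medians of 47.5 and 3 UMIs. In 36 of 37 gated cells of cluster 15 the order was reversed, with medians of 3 and 46. For comparison, gCap markers outnumbered aCap markers in 3986 of 3992 gCap-like ECs outside the gate, and aCap markers led in 896 of 917 aCap-like ECs. Cluster 11 itself met no naming rule, because only 1 gCap marker exceeded the level set for naming, and cluster 15 had all 8 aCap markers and 4 of 8 melanoma markers raised, so that it was kept apart from the named types.

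Outside the gate and EC genes, 13736 genes reached 50 UMIs in gated and other ECs combined and were compared. In gated cells 1081 were at least 2-fold higher (7.87%) and 3146 at least 2-fold lower (22.9%). Where the whole counting interval had to lie beyond 2-fold, 4.5% of genes were higher and 7.2% lower. The median log2 ratio of all genes was -0.25, so the typical gene was slightly lower. Counted relative to that median, 1558 genes were higher (11.3%) and 2295 lower (16.7%). These ratios describe the cells that the gate selected, and the counts of each list below are to be read against 7.87% and 22.9%.

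As ECs, the gated cells kept some general markers and were low for others. All 16 pan-endothelial markers were detected, none was at least 2-fold higher and 6 were at least 2-fold lower than in other ECs, with a median log2 ratio of -0.92. Cldn5, the main claudin of endothelial tight junctions, was at 4064 CPM against 2387, and Esam, an endothelial adhesion molecule, at 758 against 653. Ptprb, encoding the phosphatase VE-PTP, was at 277 against 2045 CPM, and Tek, encoding the angiopoietin receptor TIE2, at 159 against 629.9. The label of endothelial cells was met, since all gated cells had Cldn5, but with lower levels of part of the list.

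Vessel type lists differed in the same way. Of 8 gCap markers, 7 were at least 2-fold lower in gated cells (median -1.97), among them Kit, the stem cell factor receptor, at 105 against 702 CPM. Cd93, a transmembrane glycoprotein of ECs, was the eighth, at 2173 against 1424 CPM. All 8 vein markers were lower (median -3.52), and 6 of 8 lymphatic markers, but the comparison cells here included vein and lymphatic ECs. Lyve1, a hyaluronan receptor also carried by lung capillaries, was higher, at 3673 against 1379 CPM, while the lymphatic regulator Prox1 had 2 UMIs in all gated cells.

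Of 14 markers of tip and sprouting endothelium, 6 were at least 2-fold higher and 2 lower (median 0.97). Plxnd1, a semaphorin receptor, was at 480.2 against 66.5 CPM, and Unc5b, a netrin receptor, at 94.5 against 23.5. Kcne3, a potassium channel subunit, was at 30.7 against 2.68 CPM. Esm1 and Angpt2, genes often used to mark tip cells, were not past 2-fold, with log2 ratios of 0.22 (-0.70 to 1.02) and -0.08 (-0.60 to 0.40). The tip cell list was therefore divided.

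Markers of other cell types were compared as summed levels, against other ECs that included clusters with raised platelet, leukocyte, fibroblast, mural or epithelial markers. Summed over the list, 10 leukocyte markers were at 78.7 CPM in gated and 192 in other ECs, 8 mural markers at 40.3 and 104, 10 epithelial markers at 142 and 1081, 6 fibroblast markers at 6.24 and 43.9, 5 red cell markers at 838 and 2467, and 5 platelet markers at 59.5 and 115. The 6 smooth muscle markers were at 270 and 37.0 CPM, mostly from Tagln, and the 4 mesothelial markers had no UMI in gated cells. The 8 melanoma markers were at 173 CPM against 57.3, and 5 of 5 that could be compared were at least 2-fold higher. However, 1 gated cell held 249 of the 361 UMIs, and without it the list was at 54.1 CPM. Other ECs without their own top cell, which held 676 of 3940 melanoma UMIs, were at 47.5 CPM. Among other ECs, 1 cell also held 22856 of 74284 epithelial UMIs, and 748 CPM remained without it. For fibroblast markers the top cell held 1509 of 3020 UMIs, and for red cell markers 20571 of 169611. Without these cells, the epithelial, fibroblast and red cell lists were still higher in other ECs than in gated cells. A melanoma UMI was present in 29.4% of gated and 22.4% of other ECs.

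For gated cells of cluster 11 set against gCap-like ECs only, most of these lists were less far apart, and platelet markers turned. The smooth muscle list was further apart, at 385 against 24.1 CPM. The platelet list was at 72.5 CPM in gated cells of cluster 11 and 26.2 in gCap-like ECs, with 4 of 4 markers that could be compared at least 2-fold higher (median log2 ratio 1.80). Pf4, encoding platelet factor 4, was at 37.0 against 15.98 CPM. Leukocyte markers were at 40.5 CPM in gated cells of cluster 11 and 39.0 in gCap-like ECs, and epithelial markers at 156 and 167. The part of platelet RNA in the other differences was not tested.

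Of the 20 genes with the largest ratios among those in at least 20% of gated cells, several act on the cytoskeleton or at the cell surface. Tubb6, a beta-tubulin, was at 499 CPM in gated cells, 20.6 in other ECs and 1.62 in control ECs, and was detected in 80.0% of gated cells. Tuba1c, an alpha-tubulin, was at 398, 14.2 and 2.21 CPM. Rnd1, a small GTPase that loosens actin fibers, was at 196, 12.4 and 2.40 CPM, and Micall2, which links actin to junction recycling, at 21.6, 1.6 and 0.641. Tagln, an actin-binding protein of smooth muscle, was at 239.8, 11.6 and 6.82 CPM but in only 21.7% of gated cells, with 19.6% of its UMIs in 1 cell. The other smooth muscle genes Acta2, Myh11 and Des had 3, 20 and 32 UMIs and were not past 2-fold.

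Growth factors and lipid mediators formed another part of this list. Pdgfa, a ligand for PDGF receptors on mesenchymal cells, was at 1597 CPM in gated cells, 75.3 in other ECs and 23.5 in control ECs (log2 ratio 4.41 gated over other, 4.34 to 4.47). Ptges, the terminal synthase of prostaglandin E2, was at 91.1, 3.13 and 0.656 CPM. Sphk1, which makes sphingosine 1-phosphate, was at 41.7, 1.28 and 0.183 CPM. Col18a1, the collagen that gives rise to endostatin, was at 215, 13.1 and 3.80 CPM. The remaining named genes included Dusp5, a nuclear phosphatase of ERK (77.2 against 3.59 CPM), Noct, a circadian NADP phosphatase (343 against 20.9), Hmga1, an architectural chromatin protein (34.5 against 2.53), and the long noncoding RNA Pvt1 (69.6 against 4.83). Oaf (52.8 against 1.44 CPM), Bean1 (120.4 against 3.72) and Prag1 (214 against 14.95), whose roles in ECs are less settled, belonged to the same group.

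Because Fosl1 encodes an AP-1 subunit, promoters of these 20 genes and of Csf2, Sox9 and Fosl1, 23 in all, were searched for the AP-1 motif TGANTCA, which reads the same on both strands. RefSeq windows of 300 bases around a start site were at hand for 12 of these genes, in 19 windows. Sphk1 alone had a match, present in 2 of its overlapping windows and beginning 50 bases before the annotated start, in the window of GRCm38.p6 chr11:116531587-116531886. The stretch around it, chr11:116531776-116531804 on the plus strand, lies in a 5′ untranslated exon of an annotated Sphk1 transcript, overlaps the antisense gene Gm29292 and is shown with the motif in capitals because it is the only match among them.
Sphk1: gagcgtgtcgcTGAGTCAccttctcggaa
The motif was present in 7.81% of all 32851 windows, and 8.97% of 27025 genes had it in any window. Its presence in Sphk1 is a description of letters, not of binding. A window without the motif says nothing about sites elsewhere in the gene.

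The 15 genes with the lowest ratios among those in at least 20% of other ECs are described next. Hgf, encoding hepatocyte growth factor, had 3 UMIs in all gated cells, 1.44 CPM (0.297 to 4.21), against 64.4 CPM in other ECs and 57.9 in control ECs. Hmcn1, an extracellular matrix protein of the hemicentin family, was at 33.6, 677 and 950 CPM and in 16.1% of gated against 72.4% of other ECs. Glp1r was at 20.1, 321 and 359 CPM. Aplnr, the apelin receptor, was at 4.80, 69.6 and 52.3 CPM, and Eln, encoding elastin, at 9.11, 129 and 122. Chrm2, a muscarinic receptor (5.28 against 102 CPM), Kcnh1, a potassium channel (3.84 against 64.3), Ncald, a calcium sensor (36.5 against 508), Clec9a (2.88 against 37.1), Samd12 (32.6 against 431) and Ccdc85a (28.3 against 355) were further members.

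The other ECs of the B16-F10 library were also set against control ECs for these genes. Among the 15 low genes, the log2 ratio of other B16-F10 ECs over control ECs lay between -0.80 for the antisense RNA 9330175M20Rik and 1.23 for Kcnh1. Among the 20 high genes, it lay between 0.38 for Plau and 5.18 for Adamts4. Over all 14988 genes compared, 5.02% were at least 2-fold higher and 3.21% at least 2-fold lower in other B16-F10 ECs than in control ECs.

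Clot breakdown and matrix genes were a large group. Of 13 genes of the plasminogen system, proteases and their inhibitors that could be compared, 8 were at least 2-fold higher and 1 lower (median log2 ratio 2.03). Plau, encoding the plasminogen activator urokinase, was at 93.5, 5.18 and 3.97 CPM, and its receptor Plaur at 819.8, 159.7 and 92.4. Plat, the tissue-type activator, was at 145 against 45.7 CPM. Both activators and the urokinase receptor were thus higher in the same sum of cells.

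The proteases themselves were mixed. Adamts4, an aggrecanase, was at 129 CPM against 7.75, and the membrane-type metalloproteinase Mmp14 at 243 against 48.8. Timp1, an inhibitor of metalloproteinases, was at 108 against 9.02, but 1 cell held 52.7% of its UMIs. Timp3 was at 2298 against 561 CPM. Timp2, Adamts1 and Adamts9 were within 2-fold, at 260.5 against 287, 264 against 155 and 169 against 320 CPM.

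Of 15 integrins and matrix ligands compared, 8 were at least 2-fold higher and 2 lower (median 1.04). Itgb3 and Itgav, which form the vitronectin receptor, were at 118 against 10.4 and at 162 against 48.0 CPM. Itga5, the fibronectin receptor subunit, was at 671 against 92.9, and Cd44, a hyaluronan receptor, at 193 against 37.9. Itga1, a collagen receptor subunit, was lower, at 357 against 951 CPM. Junction genes were divided: of 14, 2 were higher, among them Ctnnb1, encoding beta-catenin, at 539 against 258 CPM, and 5 lower, among them Tjp1 at 210.1 against 639.7 and Jam2 at 22.5 against 103.

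Actin genes and targets of the transcription factors SRF and YAP were mostly higher, 11 of 15, with 1 lower (median 1.66). Actb made up 16269 CPM of gated cells, 2809.7 of other ECs and 1474 of control ECs. Tpm1, a tropomyosin, was at 1562 against 172 CPM, Myh9, a nonmuscle myosin, at 1685 against 459, and the secreted YAP target Ccn1 at 232 against 50.1. Amotl2, another gene often listed as a YAP target, was lower, at 29.7 against 112 CPM.

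Among colony stimulating factors and interleukins, few members were measurable. Of 16 listed, 9 could be compared, of which 2 were at least 2-fold higher and 4 lower (median -0.40). Csf1 was at 281 against 80.5 CPM and detected in 65.0% of gated cells. Lif, encoding a cytokine of the interleukin 6 family, was at 13.4 against 0.422 CPM, with 28 UMIs in 8.33% of gated cells, 21.4% of them in 1 cell. Csf3, Il3, Il5 and Il6 had no UMI in gated cells, which allows up to 3 UMIs of 2084745 for each. The 4 lower members had 2 to 13 UMIs.

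Receptors for these cytokines were mixed in the same cells, with more of them lower than higher. Of 12 compared, 2 were at least 2-fold higher, up to a log2 ratio of 1.82, and 4 lower (median -0.73). Csf2ra, the GM-CSF receptor alpha subunit, had 11 UMIs, at 5.28 against 2.63 CPM, with an interval of the log2 ratio from -0.02 to 1.88, and the beta subunit Csf2rb had 4. Lifr, the receptor for LIF, was at 43.7 against 263 CPM. The GM-CSF receptor was thus near the counting limit in gated cells, which had been selected in part for Csf2 itself.

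Of 15 chemokines, 8 could be compared, and 6 of them were at least 2-fold higher and 1 lower (median 2.38). Cxcl16, a membrane-bound chemokine, was at 505 against 71.7 CPM and detected in 90.0% of gated cells. Cx3cl1, encoding fractalkine, was at 261 against 47.9 CPM in 75.6%, and Cxcl12, a ligand of CXCR4, at 928 against 329 in 57.8%. Cxcl10 and Cxcl9 were at 277 against 33.4 and at 28.8 against 4.96 CPM, but in 13.3% and 2.22% of gated cells, and a single cell held 54.9% and 48.3% of their UMIs. Chemokines of the gated cells thus fell into broadly detected members and members that a few cells supplied.

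NF-kB factors and their targets were higher in 10 of 19 cases and lower in 1 (median 1.23). Nfkbia, the inhibitor IkB-alpha, was at 1473 against 528 CPM, Tnfaip3, which encodes A20, at 148 against 22.7, and the adhesion molecule Icam1 at 921 against 283. Sele, encoding E-selectin, was at 96.9 against 14.7 CPM in 15.6% of gated cells, with 34.2% of its UMIs in 1 cell. Selp, encoding P-selectin, was lower (14.4 against 33.5 CPM), and Vcam1 was at 110.3 against 82.6.

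AP-1 and MAF factors other than Fosl1 were not uniformly higher: of 14, 6 were at least 2-fold higher and 2 lower (median 0.66). Fosl2, encoding FRA-2, was at 113 CPM in gated cells, 26.5 in other ECs and 10.5 in control ECs, and Atf3 at 251, 72.6 and 10.7. Jun and Fos, the classical AP-1 pair, were at 1109 against 1729.9 and at 187 against 305 CPM. Of 17 immediate early genes, 4 were higher, among them Egr3 (36.0 against 4.15 CPM), and 2 were lower, Klf2 and Klf4. Within 2-fold lay 6 of the 14 AP-1 and MAF factors and 11 of the 17 immediate early genes.

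ERK feedback genes, which damp the kinase cascade, were split as well, with 5 of 15 higher and 4 lower (median 0.27). Beside Dusp5, Phlda1 (219 against 32.9 CPM) and Spry4 (369.8 against 132) were higher. Dusp6, the cytoplasmic ERK phosphatase, was lower, at 45.6 against 206 CPM, and Spry1 at 7.67 against 46.1. In the EGF family, Hbegf stood beside Errfi1, a feedback inhibitor of the receptor, at 146 against 29.3 CPM, while Areg, Ereg, Btc and Epgn had 0 to 2 UMIs. Egfr had 1 UMI and Erbb2 had 10 in all gated cells.

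Genes of cell growth were high as a group. All 18 ribosome biogenesis genes were at least 2-fold higher (median 1.77, range 1.00 to 2.23). Ncl, encoding nucleolin, was at 1180.5 CPM in gated cells, 319 in other ECs and 232 in control ECs, Gnl3, encoding nucleostemin, at 339, 72.2 and 32.7, and Fbl, encoding fibrillarin, at 219, 57.2 and 33.9. Of 10 genes of amino acid transport and polyamines, 8 were higher and none lower (median 2.66). Odc1, which starts polyamine synthesis, was at 971 against 79.6 CPM, Slc7a5, the large neutral amino acid transporter, at 29.7 against 2.52, and Slc1a5, a glutamine transporter, at 52.3 against 5.67.

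Cell division genes were not high. Of 13 genes of S phase and mitosis, none was higher and 3 were lower (median -0.24), and Mki67, a mark of cycling cells, had 2 UMIs in all gated cells. Among G1 regulators, Myc was at 204 CPM in gated cells, 20.1 in other ECs and 0.931 in control ECs, and Ccnd1, encoding cyclin D1, at 695, 176 and 111. Cdkn1b, encoding the inhibitor p27, was lower, at 20.1 against 68.4 CPM. Of 11 p53 targets, 1 was higher, Cdkn1a, encoding p21, at 1176 against 547.

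Hypoxia and glycolysis genes were higher in 8 of 14 cases and lower in 2 (median 1.15). Slc2a1, the glucose transporter GLUT1, was at 72.0 against 9.83 CPM, Hk1, a hexokinase, at 331 against 63.6 and Pfkfb3, a driver of glycolysis in ECs, at 362 against 130. Vegfa was lower, at 72.4 against 254. Of 10 heat shock genes, 5 were higher (median 0.90), of 10 NRF2 targets 4 (median 0.67) and of 17 genes of the integrated stress and unfolded protein response 4, with 3 lower (median 0.15). Atf4 was at 398 against 156 CPM and Ddit3, encoding CHOP, at 14.4 against 13.2.

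Lists of capillary function were low. Of 8 genes of flow-responsive endothelium compared, 5 were at least 2-fold lower and 2 higher (median -1.70). Klf2, a transcription factor kept up by laminar flow, was at 310.3 CPM in gated cells, 1057 in other ECs and 846 in control ECs, and Thbd, encoding the anticoagulant thrombomodulin, at 136, 642 and 848. Procr, the endothelial protein C receptor, was higher, at 71.5 against 7.36 CPM, and so was Nos3, endothelial nitric oxide synthase, at 88.7 against 28.1. Of 10 genes of capillary lipid uptake, 7 were lower and none higher (median -1.38), with Cd36, a fatty acid translocase, at 637 against 2014 CPM and Lpl, lipoprotein lipase, at 131 against 574. Of the same 10 genes, 6 were also at least 2-fold lower in other B16-F10 ECs than in control ECs (median -1.81).

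Other SOX factors were not high in these cells, which had been chosen for Sox9 itself. Of 9 compared, none was higher and 5 were lower (median -1.53). Sox17 and Sox18, which hold endothelial identity, were at 26.4 against 166 and at 189 against 347 CPM. Sox7 was at 249 against 215. Cartilage genes that Sox9 activates in chondrocytes were near 0: of 10, 2 could be compared, neither was past 2-fold, Col9a3 had 3 and Hapln1 had 9 UMIs, and the other 8, including Col2a1 and Acan, had none in gated cells.

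**Figure D3:**
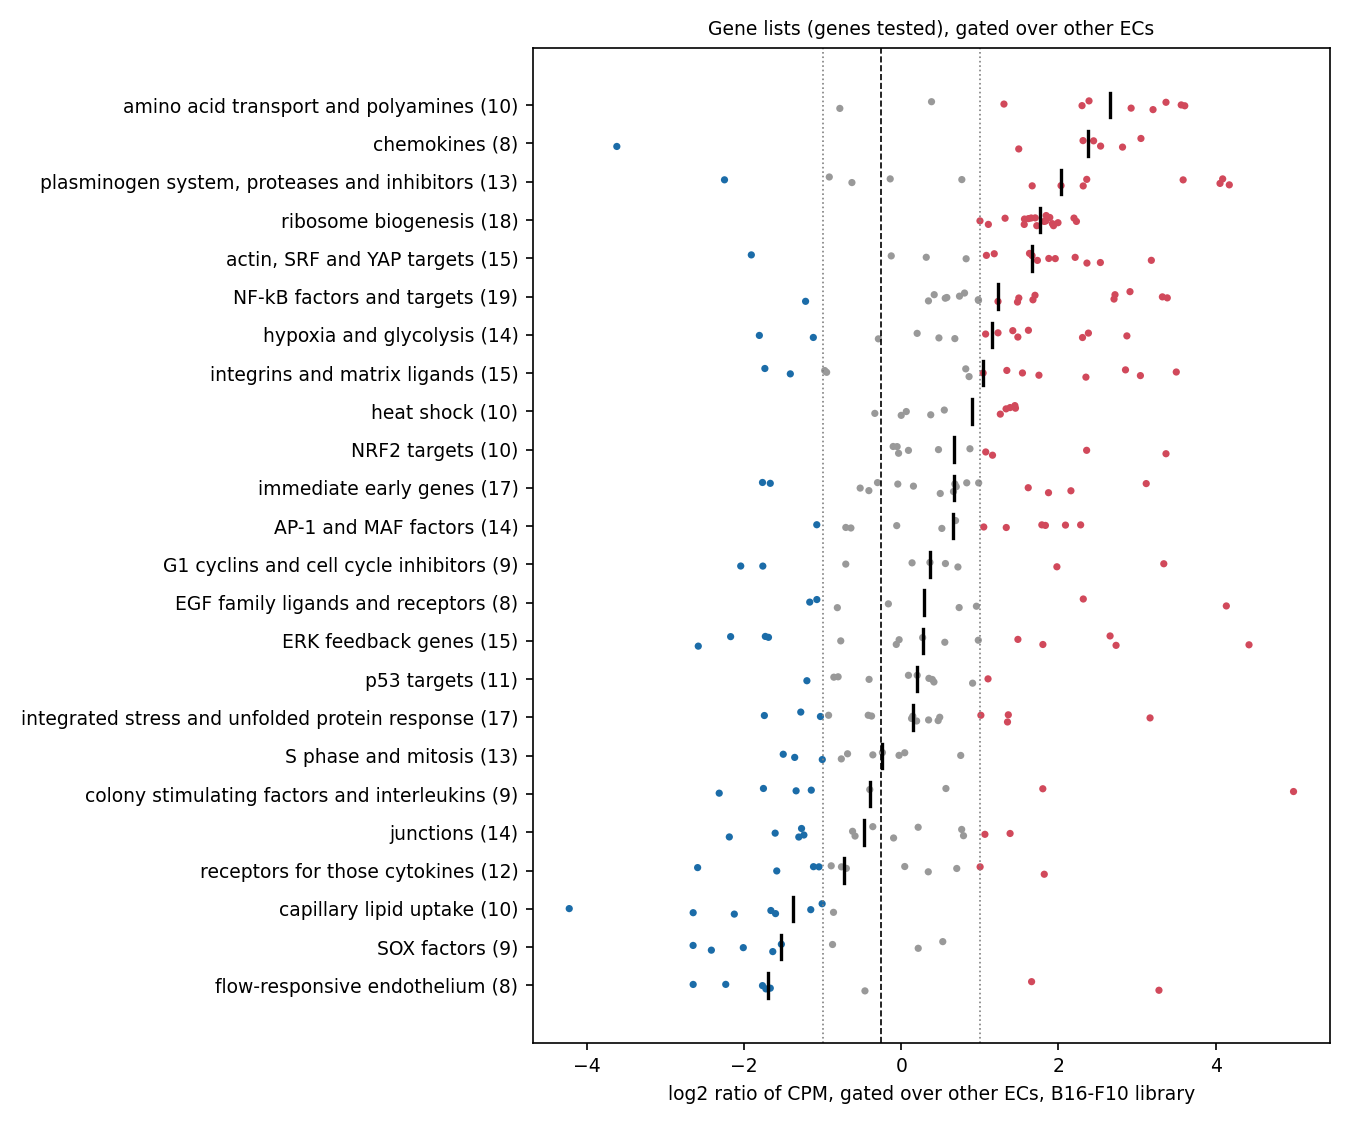
Log2 ratio of CPM in gated over other ECs of the B16-F10 library (x axis) for the genes of 24 pathway lists (rows, number of genes compared in parentheses). Points are genes, red at least 2-fold higher and blue at least 2-fold lower, dotted lines mark 2-fold, the dashed line is the median of all genes (-0.25) and black bars are list medians. Genes without a UMI in gated cells are not drawn but count in the medians. All 18 ribosome biogenesis genes are red, while no gene of capillary lipid uptake or of the SOX factors is.

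Each of the 2 main clusters was then set against ECs outside the gate that matched its capillary type. Gated cells of cluster 11 were compared with 3992 gCap-like ECs, with 10.9% of 11999 genes at least 2-fold higher and 28.5% lower. Gated cells of cluster 15 were compared with 917 aCap-like ECs, with 6.11% of 9916 genes higher and 17.1% lower. The clusters were built on the genes compared, so these values too are descriptions. Depth differed in the second pair, with a median of 14938 UMIs in gated cells of cluster 15 and 11326 in aCap-like ECs, and its part was not tested.

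Many of the high genes were high in both. Tubb6 was at 624 CPM in cluster 11 and 3.01 in gCap-like ECs, the first pair, and at 273 in cluster 15 and 1.46 in aCap-like ECs, the second pair. Adamts4 was at 129 and 0.781 CPM in the first pair and at 158 in cluster 15, with no UMI in aCap-like ECs. Ribosome biogenesis genes were past 2-fold in 18 of 18 cases in the first pair and in 7 of 18 in the second.

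Other genes were mainly in 1 of the clusters. Hbegf was at 1612 CPM in cluster 11 (1546 to 1679) and 127 in cluster 15 (98.9 to 161), above gCap-like (32.6) and aCap-like (4.57) ECs in either case. Myc was at 292 and 22.1 CPM, and Cxcl12 at 1322 and 14.7. Some genes went the other way: Slc7a11, the cystine transporter, was at 8.53 CPM in cluster 11 and 151 in cluster 15, Hmox1, heme oxygenase 1, at 44.8 and 413, and Gdf15, a stress cytokine, at 29.9 and 383. One cell held 23.4% of the Slc7a11 and 25.4% of the Gdf15 UMIs. The lists that hold such genes were compared in each cluster with its matched type. Of NRF2 targets, 2 of 9 were at least 2-fold higher in cluster 11 and 3 of 9 in cluster 15. Their median log2 ratios were -0.19 and 0.98. Of integrated stress genes, 4 of 16 and 3 of 12 were higher, with medians of -0.08 and 0.62. The shares of all genes that were higher were 10.9% and 6.11%.

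Capillary and pan-endothelial markers were low relative to the matched type. Of 16 pan-endothelial markers, 11 were at least 2-fold lower in gated cells of cluster 11 than in gCap-like ECs (median log2 ratio -1.23). In cells of cluster 11 outside the gate, 10 were. In gated cells of cluster 15, 5 were lower and 1 higher than in aCap-like ECs (median -0.74). Of the 8 gCap markers, 7 were at least 2-fold lower in gated cells of cluster 11 than in gCap-like ECs, with Kit at 108 against 987 and Glp1r at 17.1 against 499 CPM, while Cd93 was at 3062 against 1849. Of the 8 aCap markers, 5 were lower in gated cells of cluster 15 than in aCap-like ECs, with Ednrb, the endothelin receptor B, at 536 against 1108, Car4, a carbonic anhydrase, at 853 against 2010.3 and Fibin at 193 against 795 CPM. Apln, encoding apelin, was at 376 against 225 and Chst1 at 390 against 334. Melanoma markers in gated cells of cluster 15 were at 569 CPM, of which 113 remained without the single cell named above. They were at 24.6 CPM in aCap-like ECs, and all 4 that could be compared were at least 2-fold higher (median log2 ratio 4.43). Cells of cluster 15 outside the gate had 1735 CPM, or 1058 without their top cell. In cluster 11 gated cells had 30.6 CPM, against 31.5 in gCap-like ECs. The part of melanoma RNA in other genes of cluster 15 was not tested.

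**Figure D4:**
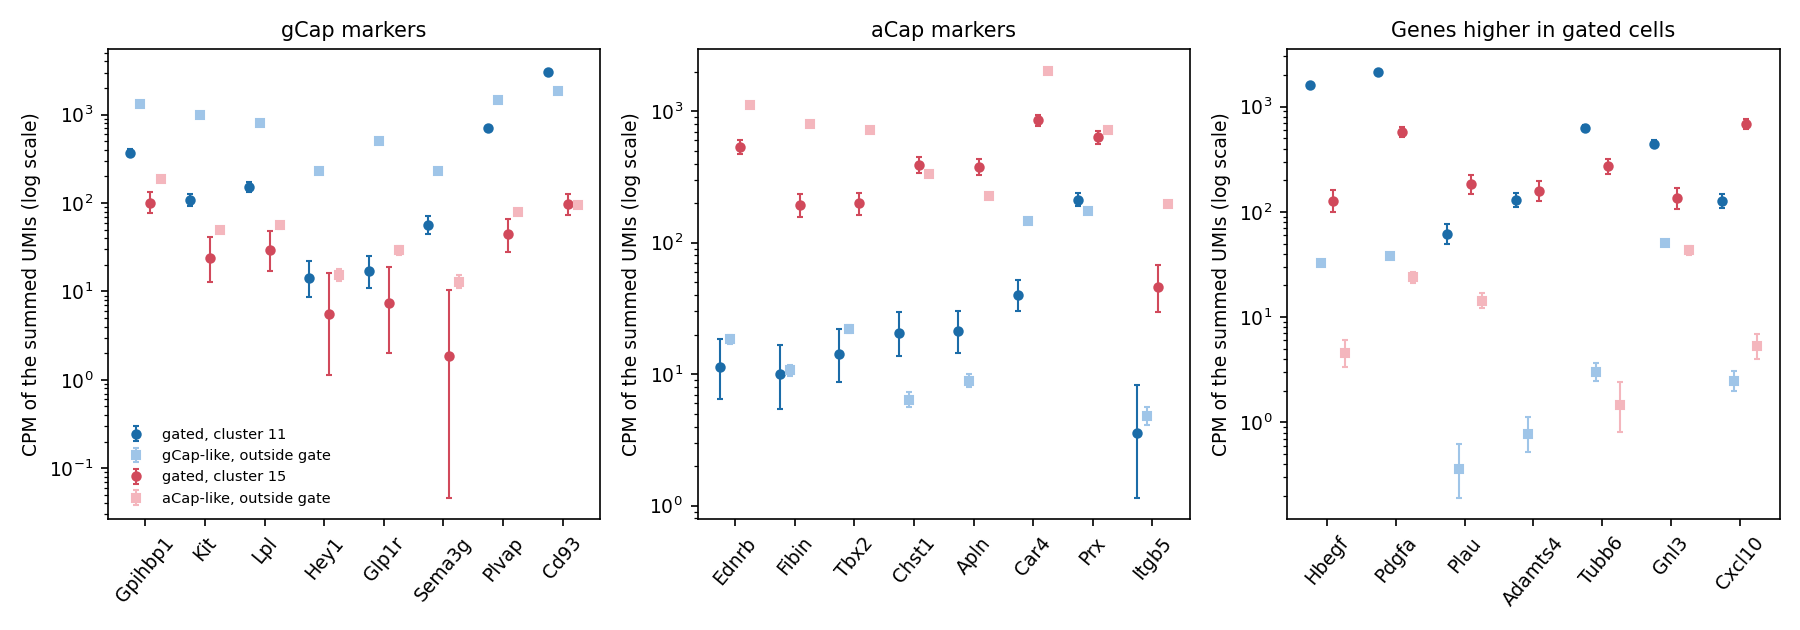
CPM on a log axis, with exact 95% Poisson intervals, of 8 gCap markers (left), 8 aCap markers (middle) and 7 genes that were higher in gated cells (right). Dark circles are gated cells of cluster 11 (blue, 130 cells) and cluster 15 (red, 37 cells), light squares are gCap-like and aCap-like ECs outside the gate, and a group without UMIs is not drawn (Adamts4 in aCap-like ECs). Blue circles follow the gCap pattern and red circles the aCap pattern, in most markers below the matching squares, while all genes of the right panel lie above them.

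Members of both clusters that were outside the gate were compared with the same types. The 201 cells of cluster 11 outside the gate had 10.0% of genes at least 2-fold higher and 28.2% lower than gCap-like ECs, and Hbegf at 1155 CPM. The 80 such cells of cluster 15 had 3.54% and 6.95% against aCap-like ECs, and Hbegf at 18.4 CPM. Cells of cluster 11 outside the gate were thus as far from gCap-like ECs, by these shares, as those inside. All 18 ribosome biogenesis genes were at least 2-fold higher in them than in gCap-like ECs (median log2 ratio 2.18). So were 7 of 9 amino acid transport and polyamine genes, 12 of 15 of the actin list and 6 of 6 chemokines. These lists were thus not particular to gated cells of cluster 11. In cluster 15 outside the gate, 1 of 18 ribosome biogenesis genes and 4 of 14 of the actin list were higher.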

How the data were processed

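The files hold raw UMI counts per gene and barcode, deposited by the authors without filtering of empty barcodes; per the file headers they were made with Cell Ranger 7.2.0, and the submitters' processing notes name Seurat 4.4.0 and the mouse build mm10, while the study's methods name an earlier Cell Ranger version. Of 32285 gene IDs, 32158 matched GENCODE M21. Barcodes were filtered as given in the report, counts were summed over cells of a group and scaled to CPM, and genes that reached 50 UMIs in the compared groups combined entered a comparison. With 1 library per group no test was run: Poisson intervals are exact, ratios have exact conditional binomial intervals and shares have Clopper-Pearson intervals, all at 95%. A gene was counted as higher or lower from 2-fold; one without UMIs in gated cells entered medians at a floor of 3 UMIs.

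Cells were clustered with scanpy 1.11.5 and leidenalg 0.10.2 (3000 variable genes, less the gate genes and the EC genes, 30 principal components, 20 neighbors, resolution 1.0). A cluster took a type name when at least 50% of a list, and at least 3 markers, were at least 1.5-fold raised and in at least 10% of its cells. Doublets were called with Scrublet at 0.8% per 1000 cells and kept. Free RNA was read from barcodes of at most 100 UMIs. Numpy 2.4.6, scipy 1.17.1 and matplotlib 3.10.9 under python 3.11.15 did the rest, and the comparison of counts was tested on simulated data.

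The members and gene lists were chosen with earlier results of these data known. Genes were named by rule: Csf2, Sox9, Fosl1 and Hbegf, the 20 with the largest ratio among those in at least 20% of gated cells, the 15 with the lowest among those in at least 20% of other ECs, and members of the lists (mitochondrial and sex-linked marker genes left out). The alternatives changed the gate, gene limits, depth, doublets, scaling, UMI minimum and fold rule. A few members of the lists are counted but not reported here by name.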

Additional observations from a re-analysis of the deposited data

Results flagged for a closer look

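Barcodes with over 5000 genes were left out of all comparisons. In the B16-F10 library 28 of 608 such barcodes with at least 2 UMIs of Pecam1 and Cdh5 met the rest of the gate, 4.61% (exact 95% interval 3.08 to 6.59), against 0.304% (1 of 329) in the control library. Their signal in cells that the report does not use is what singled them out. Of the 28 barcodes, 3 had at least 5 UMIs of melanoma markers. The median depth of all 608 barcodes was 22426.5 UMIs, compared with 11359 in the gated cells of the report.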

How the results depend on the processing

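No paired analysis was possible because control and B16-F10 were 1 library each and no test was run. Reversal of direction was checked only for the 35 genes named for their high or low ratios, and none reversed under any alternative. These genes stayed past 2-fold in 525 of 525 recalculations, but they had been chosen for extreme ratios. Other list members were rechecked as counts and medians of their list, not gene by gene. The B16-F10 share was 2.69% with a gate of at least 2 UMIs, 1.78% with at least 5, 0.488% with both Csf2 and Sox9 required and 1.57% in cells thinned to 4000 UMIs, and the share of control endothelial cells in the gate was then 0.169, 0.0121, 0 and 0.0140%. Without the upper gene limit 1925 genes were higher and 2010 lower, with a minimum of 10 UMIs 1659 were higher, and where the whole interval had to pass 2-fold, a rule chosen after seeing the data, 618 were higher, 989 lower and 29 pathway genes lower. The log2 ratio of Hbegf was 3.70 without the upper gene limit, 4.33 with a gate of at least 5 UMIs, 4.22 with both genes required, 4.29 in thinned cells, 4.22 as a mean of cells and 4.39 scaled to the median gene. The cause of these shifts was not tested. Leaving out called doublets gave a B16-F10 share of 2.26%. Depth limits the genes with few UMIs, such as Hgf, Csf2ra and the interleukins, to wide intervals.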

Other observations

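The study's list of 50 reactive capillary (rCap) markers came from integrated datasets of several experiments of the study, so that it is not independent of these libraries. In gated cells 8 were at least 2-fold higher and 17 lower than in other B16-F10 ECs (median log2 ratio -0.43). Inhbb, encoding an activin subunit, was among the higher members at 723 against 86.2 CPM, and Kit among the lower. In other B16-F10 ECs against control ECs, 30 of the 50 were at least 2-fold higher (median 1.21). The clusters differed when set against their matched types: in gated cells of cluster 11, 11 of 50 were higher and 24 lower than in gCap-like ECs (median -0.85), while in gated cells of cluster 15, 22 of 43 were higher and 1 lower than in aCap-like ECs (median 1.03). The difference between the clusters was not tested.

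Of 8 artery markers, 2 were at least 2-fold higher in gated cells and 5 lower (median -2.04), and of 8 aCap markers 2 were higher and none lower (median -0.33). In the sum of gated cells the aCap values came mostly from cluster 15, where the list was at 3227 CPM against 334 in cluster 11.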
